A study of Saccharomyces cerevisiae with 96 samples.

Results

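The 35 nuclear genes described here encode the subunits of the yeast respiratory chain and of the F1Fo ATP synthase, together with the 2 forms of cytochrome c. A probe set was taken as a member when its gene annotation named 1 of these genes and no other. This gave 37 of the 9275 probe sets tested, of which 6504 carried a single gene name. A single probe set represented 33 of the genes, and QCR8 and ATP14 had 2 each. All 37 were measured, with mean levels over the 96 arrays between 5.13 and 10.86 on the log2 scale, and none was removed by a filter.

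The respiratory chain of Saccharomyces cerevisiae lies in the inner mitochondrial membrane. It lacks the proton-pumping complex I of animals, and single-polypeptide NADH dehydrogenases pass electrons to ubiquinone in its place, as does succinate dehydrogenase, complex II. The cytochrome bc1 complex, complex III, hands the electrons on to cytochrome c, and cytochrome c oxidase, complex IV, gives them to oxygen. The ATP synthase uses the proton gradient to make ATP. Most subunits are encoded in the nucleus and imported, while a few core subunits of complexes III and IV and of the ATP synthase are encoded in mitochondrial DNA. Many of the nuclear genes are known to be repressed by glucose and to need heme and the HAP activators for expression.

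Nonsense-mediated mRNA decay (NMD) removes transcripts on which translation stops too early, and it requires the helicase Upf1p. The question was whether loss of this pathway altered the abundance or the decay of RNAs. The congenic strains compared were S288C (Nmd+, wild type) and YRZ1 (Nmd-, in which UPF1 was replaced by KanMX4), so that 1 strain stands for the null. Mid-log cultures of both received thiolutin at 10 µg/ml, which inhibits transcription, and RNA was taken at 16 times from 0 to 60 min in 3 trials per strain, here called courses or replicates. All groups other than 0 min therefore carried the drug, and there was no course without it, so changes with time cannot be told apart from other effects of the drug or of sampling. The notes of the 6 arrays at 4 min give thiolutin at 14 µg/ml. Those arrays entered no time window, but they are part of the mean of 16 times and of the values printed for 4 min.

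Levels are log2 values after robust multi-chip average (RMA) normalization, and array medians lay between 5.86 and 6.08. A change over time is thus a change relative to the average transcript. With transcription inhibited, a transcript that fell more slowly than the average one and a transcript that was still being made would both appear to rise, and the arrays do not tell these apart. Levels of different probe sets are not compared with each other.

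Some arrays went against their titles. UPF1 and the KanMX4 cassette mark the strain, and 6 of the 96 arrays carried a marker against the title. The arrays titled Nmd- replicate 1 at 10, 40, 45 and 50 min had UPF1 levels of 5.89 to 6.20 and KanMX4 levels of 4.99 to 5.38, whereas the other 44 Nmd- arrays had UPF1 at 1.93 to 3.81 and KanMX4 at 11.65 to 12.54. The arrays titled Nmd+ replicate 1 at 20 min and Nmd+ replicate 3 at 60 min had KanMX4 at 8.28 and 11.28, against 3.34 to 6.26 in the other 46 Nmd+ arrays, with UPF1 in the Nmd+ range in the former and at 5.43 in the latter, just inside that range.

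The order in time was checked with 6056 probe sets outside the respiratory genes, each array being placed along the change with time seen in the Nmd+ courses. In Nmd+, 6 of 45 steps from one title time to the next ran backwards, none of them in all 3 courses. In Nmd-, 15 of 45 steps did. The Nmd- arrays titled 2, 6, 10 and 15 min lay ahead of the next title time in 3 of 3 courses, so that the 12 arrays in question alternated with their neighbours. The times were left as titled, the true order was not settled, and results that rest on these arrays are given with and without them. Both sets together held 17 arrays.

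**Figure D1:**
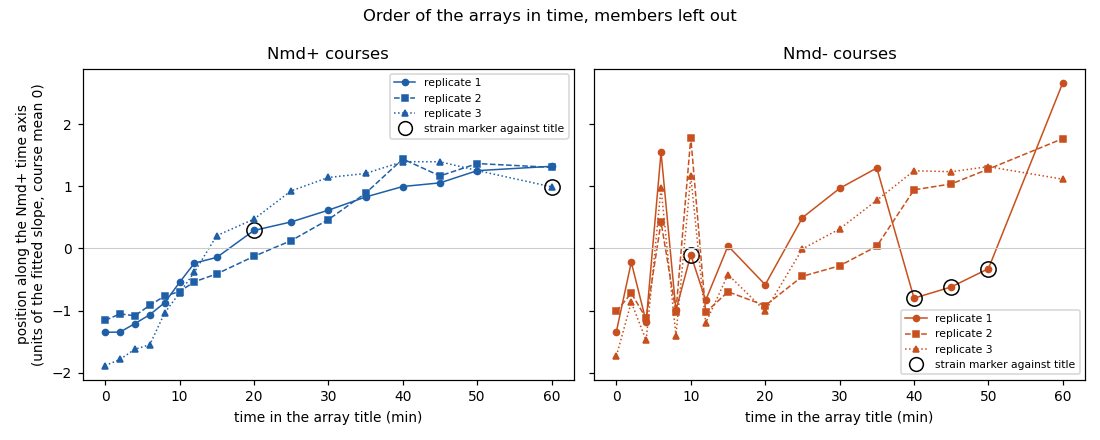
Position of each array (vertical axis, units of the fitted Nmd+ slope, course mean 0) against the time in its title (horizontal axis, min), with 1 line per course and circles on the 6 arrays with a strain marker against the title. The Nmd+ courses rise almost steadily, whereas the Nmd- arrays titled 2, 6, 10 and 15 min stand above the arrays that follow them in each of 3 courses.

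Before the drug acted, respiratory transcripts differed little between the strains. At 0 min none of the 37 probe sets was called different, where a call required an adjusted p under 0.05 from limma, with Benjamini-Hochberg adjustment over 9275 probe sets, and a change of at least 1.5-fold. In the same comparison 4.98% of all probe sets were called. The median difference, Nmd- minus Nmd+, was -0.09 over the members and -0.05 over all probe sets. Unadjusted p-values under 0.05 were found for 3 members, QCR9, CYC1 and ATP2, and for 18.8% of all probe sets, and the smallest adjusted p was 0.147. The 95% confidence intervals were wide. They lay within 1.5-fold in either direction for 12 of the 37 and within 2-fold for 33, so smaller differences were not detectable with 3 arrays per strain.

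The ranges of the 3 arrays per strain did not overlap for 5 members at 0 min, 2 higher and 3 lower in Nmd-, where 13.8% and 10.8% of all probe sets were separated in those directions. QCR9 (YGR183C), a small subunit of complex III, had levels of 8.89, 8.97 and 9.11 in Nmd+ replicates 1, 2 and 3 and of 9.49, 9.46 and 9.64 in Nmd-. The difference was 0.54 (SE 0.18, limma adjusted p = 0.147). The other member with a higher, non-overlapping range in Nmd- was ATP17, a subunit of the Fo part of the ATP synthase, with a difference of 0.31.

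CYC1 (YJR048W), the main aerobic form of cytochrome c, had 0 min levels of 8.14, 7.86 and 7.70 in Nmd+ and of 7.30, 7.10 and 7.46 in Nmd-. All 3 Nmd- arrays were below all 3 Nmd+ arrays, with a difference of -0.61 (SE 0.20, adjusted p = 0.157). ATP2 (YJR121W), the catalytic beta subunit of F1, had 10.12, 10.00 and 10.27 in Nmd+ and 9.61, 9.77 and 9.61 in Nmd-, again without overlap (difference -0.47, SE 0.18, adjusted p = 0.212). ATP7, in the stalk of the synthase, was the remaining member lower without overlap, by -0.44. None of these 5 differences passed the adjusted threshold.

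CYC7 (YEL039C), the second form of cytochrome c, known to be favoured at low oxygen, showed the largest difference at 0 min and the least certain. Its 3 Nmd- arrays were close together at 4.75, 4.83 and 4.69, whereas the Nmd+ arrays ranged from 4.16 through 5.85 to 6.88, on both sides of them. The difference of -0.87 (95% confidence interval -2.24 to 0.49) was smaller than the spread between the Nmd+ arrays.

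The mean of the 16 times per course gave the same picture. None of the 37 members was called between the strains, against 2.72% of all probe sets, none had an unadjusted p under 0.05 (10.2% of all probe sets had), and the smallest adjusted p was 0.624. The median difference was -0.14 over the members and -0.09 over all probe sets, and 32 of the 37 were below 0. The share of all probe sets below 0 was not counted, so this count is not read as particular to the members. The 95% intervals lay within 1.5-fold for 15 members and within 2-fold for 34. SDH3, a membrane anchor subunit of complex II, was the 1 member whose 3 Nmd- courses lay below all 3 Nmd+ courses, where 6.19% of all probe sets did so, and no member was separated the other way (10.3%). Its course means were 9.47, 9.63 and 9.82 in Nmd+ and 9.35, 9.42 and 9.38 in Nmd- (difference -0.26, adjusted p = 0.684). With the arrays in doubt left out, in either set or both, no member was called in either strain comparison.

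**Figure D2:**
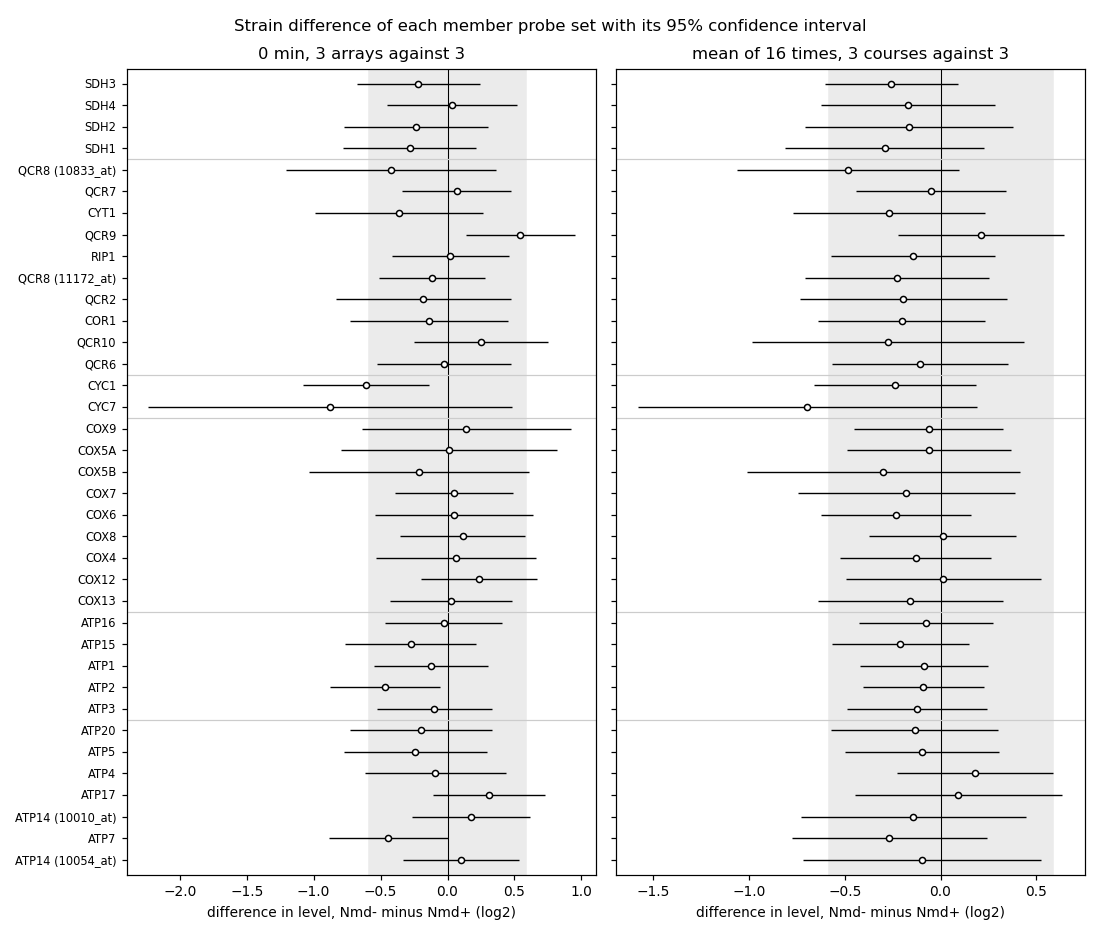
Difference in level, Nmd- minus Nmd+ (horizontal axis, log2), of each of the 37 member probe sets at 0 min (left) and as the mean of 16 times (right), with 95% confidence intervals from limma. The shaded band marks 1.5-fold in either direction. None of the 37 was called in either comparison, and CYC7 had the widest interval in both panels.

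With time in thiolutin, 11 of the 37 members rose relative to the average transcript in Nmd+ and 7 in Nmd-, and the rest did not pass the test. From 0-2 to 45-60 min the median change of the 37 members was 0.39 in Nmd+ and 0.33 in Nmd-, against 0.05 and 0.02 over all probe sets. In Nmd+ the 11 were called higher and none lower, where 11.1% of all probe sets were called higher and 14.3% lower. In Nmd- the 7 were called higher and none lower, where the shares were 9.97% and 11.1%. With no fold minimum 15 members were higher in Nmd+ and 8 in Nmd-, where 13.7% and 11.8% of all probe sets were. The means of CYC1, COX5A and COX9 were below 0 in both strains. The change was above 0 in all 3 Nmd+ courses for 27 of the 37 members (33.6% of all probe sets), in all 3 Nmd- courses for 26 (29.7%), and in all 6 courses for 24 (19.8%).

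Those called in both strains were SDH1 and SDH2 of complex II, QCR6 and QCR10 of complex III, and CYC7. ATP14, COR1, QCR2, QCR8, COX12 and COX13 were called in Nmd+ alone, and ATP2 and ATP7 in Nmd- alone. A call in 1 strain is not a difference between them. The difference in change, tested over the 3 courses of each strain, was called for none of the 37, had no unadjusted p under 0.05 among them, and reached a smallest adjusted p of 0.439. No probe set of the 9275 was called in that comparison (0%), although 12.0% had an unadjusted p under 0.05. The 95% intervals of the difference lay within 1.5-fold for 7 members and within 2-fold for 34.

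Apart from that of CYC7, these rises were called relative to the average transcript only. When each array was centred instead on 110 probe sets that the study took as stable references, the median of all probe sets moved to -0.68 in Nmd+ and -0.49 in Nmd-, and that of the members to -0.33 and -0.18. The members stood 0.34 and 0.30 above all probe sets on either scale. Centring moves all probe sets of an array by the same amount, so this gap could not change and is no second check. On the reference scale 1 member, CYC7, was called higher in each strain, while 7 were called lower in Nmd+ and 2 in Nmd-. By complex, cytochrome c aside, the medians on that scale ran from -0.57 (complex IV) to -0.13 (complex III) in Nmd+ and from -0.40 (complex IV) to 0.06 (complex II) in Nmd-. Of all probe sets 284 (3.06%) were then called higher and 5306 (57.2%) lower in Nmd+, and 279 (3.01%) and 3554 (38.3%) in Nmd-. The centring used the plain mean of the 110 probe sets. The study, which states that these transcripts still decay slowly, adjusted its reference line for that. The scale used here is therefore not the study's own.

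The counts also moved with single courses and arrays. Without Nmd+ replicate 1, 2 or 3 the Nmd+ count was 7, 6 or 7. Without Nmd- replicate 2 or 3 the Nmd- count was 2 or 4. Without the 6 arrays with a marker against the title the Nmd- count was 13 and the Nmd+ count 10, and the Nmd- calls then included ATP3, ATP14, COR1, COX12, SDH3 and QCR8. Without the 12 Nmd- arrays titled 2, 6, 10 and 15 min 6 were called in Nmd-, and without both sets 12, with 8 in Nmd+. The shares of all probe sets called under these settings are not given beside the counts. The moves are therefore not read as particular to the members.

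**Figure D3:**
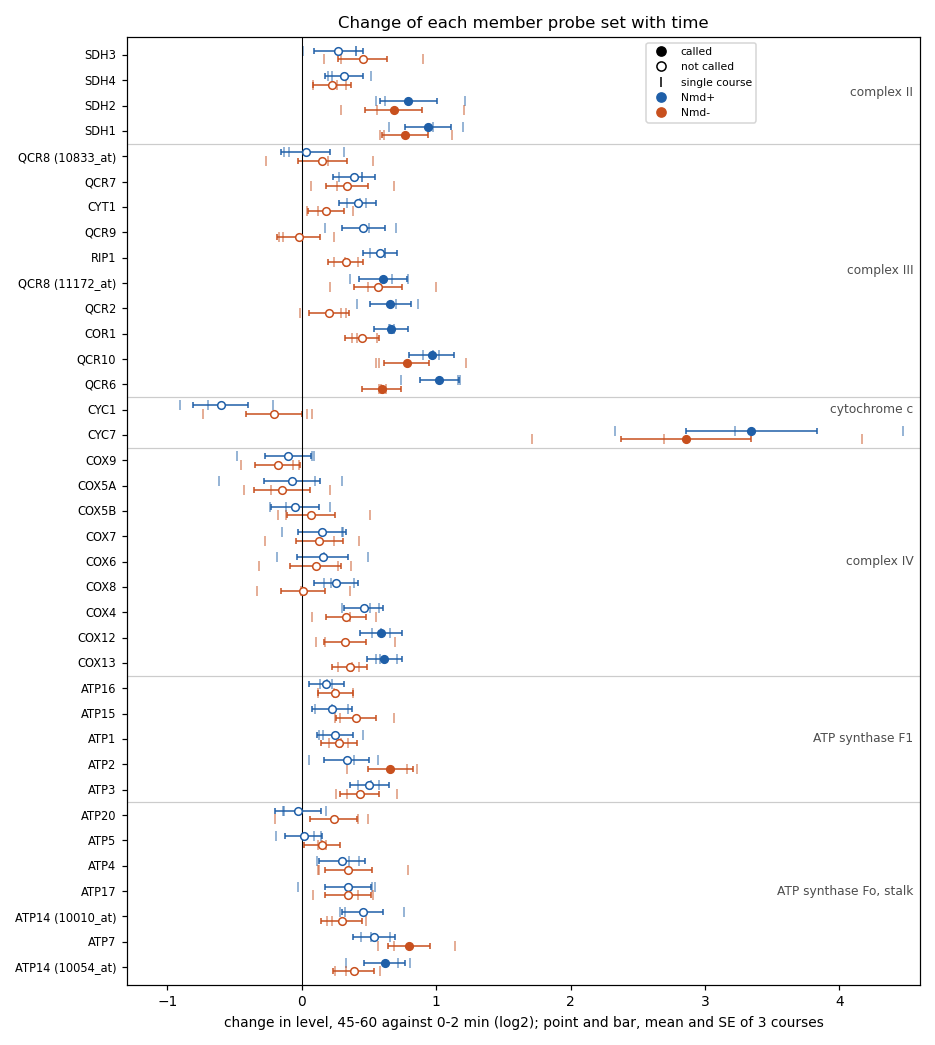
Change in level from 0-2 to 45-60 min (horizontal axis, log2) of each member probe set, by complex. Points and bars are the mean and SE of 3 courses, ticks are single courses, and filled points passed the call. The filled points lie to the right of 0, CYC7 farthest, and the COX5A, COX5B and COX9 points sit near 0 in both strains.

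Complex II, which oxidizes succinate in the TCA cycle, had a median change of 0.55 in Nmd+ and 0.57 in Nmd-, with 2 of its 4 probe sets called in each strain. SDH1 (YKL148C), the flavoprotein subunit, had mean levels that rose by 1.20, 0.98 and 0.65 in Nmd+ replicates 1, 2 and 3 and by 0.61, 1.12 and 0.58 in Nmd-. This is a mean change of 0.94 (SE 0.17, limma adjusted p = 0.005) in Nmd+ and 0.77 (adjusted p = 0.016) in Nmd-. At 0 min the SDH1 levels were 8.67, 8.77 and 9.06 in Nmd+ and 8.70, 8.24 and 8.71 in Nmd-, and at 60 min they were 9.92, 9.86 and 9.56, and 10.42, 9.76 and 9.13. Each course ended above its own start, by least in replicate 3 of both strains.

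SDH2, the iron-sulfur subunit, rose by 0.79 in Nmd+ and 0.68 in Nmd-, the latter with an adjusted p of 0.048. The membrane anchor subunits had smaller changes, 0.27 and 0.45 for SDH3 and 0.31 and 0.23 for SDH4, and neither passed the test. The courses of SDH4 gave 0.52, 0.23 and 0.20 in Nmd+ and 0.33, 0.26 and 0.09 in Nmd-, all above 0. Those of SDH3 gave 0.40, 0.40 and 0.01 in Nmd+, and 0.29, 0.90 and 0.16 in Nmd-.

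In complex III 5 of 10 probe sets were called in Nmd+, the most of any complex there, while the 2 called in Nmd- equal the number in complex II, with median changes of 0.59 and 0.33. QCR6 (YFR033C), an acidic subunit bound to cytochrome c1, changed by 1.17, 1.17 and 0.73 in the 3 Nmd+ courses (mean 1.02, SE 0.14, adjusted p = 0.002, 2.03-fold) and by 0.59, 0.62 and 0.57 in the Nmd- courses (mean 0.60, adjusted p = 0.021). The 3 Nmd+ courses were all above the 3 Nmd- courses, but the difference in change of -0.43 (95% confidence interval -0.90 to 0.04) had an adjusted p of 0.443. The separation also rests on arrays in doubt. In Nmd- replicate 1 the arrays at 45 and 50 min, with markers against the title, were at 8.99 and 8.76. Its 60 min array was at 9.954, against a 0-2 min mean of 8.645. The share of all probe sets separated in this way was not counted. QCR6 levels at 0 min were 8.46, 8.35 and 8.99 in Nmd+ and 8.54, 8.60 and 8.58 in Nmd-.

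QCR10, an accessory subunit, rose by 1.02, 0.90 and 0.98 in Nmd+ and by 0.55, 1.22 and 0.57 in Nmd-, so the strains overlapped. The core proteins COR1 and QCR2 rose by 0.66 each in Nmd+, and had changes of 0.45 and 0.20 in Nmd-. RIP1, the Rieske iron-sulfur protein, changed by 0.58 in Nmd+ with an adjusted p of 0.011 but stood just under the 1.5-fold minimum, and by 0.33 in Nmd-. CYT1, the cytochrome c1 gene, had 0.42 and 0.18.

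The 2 probe sets of QCR8 differed. The one named 11172_at rose by 0.60 in Nmd+, with 0.57 in Nmd-, while 10833_at, the member with the lowest mean level, gave -0.13, 0.31 and -0.09 in the Nmd+ courses and 0.53, 0.20 and -0.26 in the Nmd- courses. QCR9 was the lowest of the complex in Nmd-, with changes of -0.17, 0.24 and -0.14, against 0.50, 0.70 and 0.17 in Nmd+. The negative change of Nmd- replicate 1 rested on arrays in doubt. Those at 45 and 50 min, with markers against the title, were at 9.136 and 8.647. The 60 min array of that course was at 10.002, above its 0-2 min mean of 9.435. The difference in change for QCR9, -0.48 (adjusted p = 0.440), did not pass the test.

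Cytochrome c, the soluble carrier between complexes III and IV, gave the widest contrast within a group. CYC7 rose by 4.48, 2.33 and 3.22 in Nmd+ replicates 1, 2 and 3 (mean 3.34, SE 0.49, adjusted p = 0.002) and by 1.71, 4.17 and 2.69 in Nmd- (mean 2.86, adjusted p = 0.007). In linear terms CYC7 was 7.25-fold higher in Nmd- and 10.1-fold higher in Nmd+. It kept its call in 18 of 18 alternative settings in either strain, with values from 2.62 to 3.85 in Nmd+ and from 2.20 to 4.53 in Nmd-. The difference between the strains in this change, -0.49, had a 95% interval of -2.07 to 1.09 and changed sign to 0.25 without the 6 arrays in doubt.

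The course of CYC7 was gradual in Nmd+. In Nmd+ replicate 1 its level went from 4.16 at 0 min to 6.39 at 8 min, 8.28 at 20 min and 9.27 at 60 min. Replicate 2 began higher, at 6.88, was at 6.33 at 8 min, and reached 9.16. Replicate 3 passed from 5.85 to 7.85 at 8 min and 9.52 at 20 min and ended at 9.12. The arrays of replicate 1 at 20 min and of replicate 3 at 60 min are those with KanMX4 against the title. At 50 min the 3 courses were at 8.51, 9.34 and 9.29.

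In Nmd- the same transcript alternated with the title time. In Nmd- replicate 3 it was at 4.69, 7.60, 5.00, 9.05, 5.53 and 9.08 in the arrays titled 0, 2, 4, 6, 8 and 10 min. Replicate 1 had 4.75, 7.43, 4.70, 9.34, 5.41 and 7.84 in these arrays, and replicate 2 had 4.83, 4.77, 4.58, 6.85, 4.59 and 8.76. The high values are those of arrays that lay ahead in the order of the other probe sets used for it. Not every such array was high, since the replicate 2 array titled 2 min also lay ahead and was at 4.77. From 20 min on, replicate 2 rose from 4.49 to 9.38 and replicate 3 from 6.71 to 8.66. Replicate 1 went from 6.82 to 9.30 at 35 min, was at 6.00, 6.65 and 6.70 in the arrays at 40, 45 and 50 min, whose strain markers went against the title, and was at 10.04 at 60 min. Without the 6 arrays the change in Nmd- was 3.61, and without both sets 4.53.

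CYC1 did not share this rise. Its change was -0.21, -0.70 and -0.90 in the Nmd+ courses (mean -0.60, SE 0.21, adjusted p = 0.060) and 0.08, 0.04 and -0.73 in the Nmd- courses (mean -0.21, adjusted p = 0.511). It was lower at 45-60 min in all 3 Nmd+ courses and in 1 of the 3 Nmd- courses. In Nmd- replicate 1 this depended on arrays in doubt. Those at 45 and 50 min, with markers against the title, were at 7.93 and 8.31. The 60 min array of that course was at 6.776, below its 0-2 min mean of 7.596. The Nmd+ change just missed the threshold, and it passed with the replicate number as a block (adjusted p = 0.024). CYC1 levels stayed between 6.38 and 8.87 in the Nmd+ arrays and between 6.77 and 8.40 in the Nmd- arrays.

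**Figure D4:**
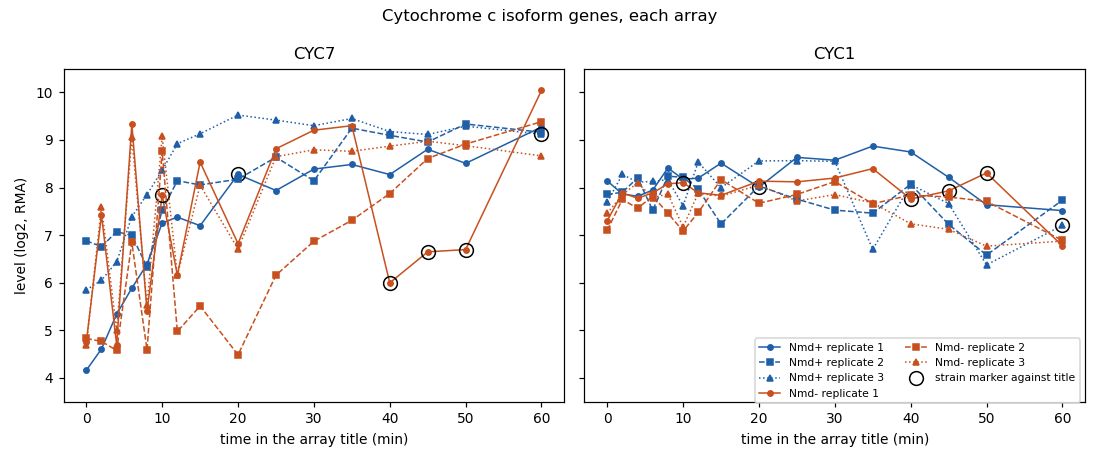
Level (vertical axis, log2 after RMA) of CYC7 (left) and CYC1 (right) in each array against the time in its title (horizontal axis, min), with 1 line per course and circles on the arrays with a strain marker against the title. CYC7 climbs in all Nmd+ courses and alternates early in the Nmd- courses, whereas CYC1 stays between 6.38 and 8.87.

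Complex IV changed least, with median changes of 0.16 in Nmd+ and 0.11 in Nmd- over 9 probe sets. COX12 and COX13, 2 of the accessory subunits around the mitochondrially encoded core, were called in Nmd+ and none was called in Nmd-. COX13 (YGL191W) changed by 0.55, 0.71 and 0.58 in Nmd+ (mean 0.61, SE 0.13, adjusted p = 0.009) and by 0.37, 0.43 and 0.27 in Nmd- (mean 0.36, adjusted p = 0.079). COX12 rose by 0.59 in Nmd+, with 0.32 in Nmd-. The Nmd- value includes the replicate 1 arrays at 45 and 50 min, with markers against the title, at 9.723 and 10.216. The 60 min array of that course was at 11.179. Without the arrays with a marker against the title COX12 was called in Nmd-. COX4 changed by 0.46 in Nmd+ (adjusted p = 0.048), under the fold minimum.

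COX5A and COX5B encode the alternative forms of subunit V, COX5A the aerobic form and COX5B the one used at low oxygen. COX5A (YNL052W) gave 0.30, 0.10 and -0.61 in the Nmd+ courses and 0.21, -0.23 and -0.43 in the Nmd- courses, with means of -0.07 and -0.15. COX5B (YIL111W) gave -0.12, -0.24 and 0.21 in Nmd+ and -0.18, 0.50 and -0.12 in Nmd-, with means of -0.05 and 0.07. The courses of both fell on either side of 0. COX5B levels at 0 min were 7.47, 8.77 and 8.32 in Nmd+ and 7.96, 7.59 and 8.37 in Nmd-, and those of COX5A were 8.60, 8.97 and 9.49, and 8.38, 9.16 and 9.56.

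COX9 (YDL067C), a small membrane subunit, had the lowest change of complex IV in both strains, 0.09, 0.08 and -0.48 in Nmd+ and -0.02, -0.07 and -0.45 in Nmd-. It was the 1 member below 0 in all 3 Nmd- courses, where 27.9% of all probe sets were, as CYC1 was in Nmd+ (28.6%). COX6, COX7 and COX8 had changes of 0.01 to 0.25, and none passed the test.

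The F1 part of the ATP synthase, which carries the catalytic sites, had median changes of 0.25 in Nmd+ and 0.41 in Nmd-. None of its 5 probe sets was called in Nmd+ and 1, ATP2, was called in Nmd-. ATP2 changed by 0.34, 0.86 and 0.78 in Nmd- (mean 0.66, SE 0.17, adjusted p = 0.024) and by 0.57, 0.39 and 0.05 in Nmd+ (mean 0.33, adjusted p = 0.169). ATP3, the gamma subunit that forms the central stalk, changed by 0.51, 0.57 and 0.42 in Nmd+ (mean 0.50, adjusted p = 0.032), under the fold minimum, and had 0.43 in Nmd-.

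ATP16, the delta subunit of yeast F1, had the smallest changes of this group, 0.23, 0.19 and 0.14 in Nmd+ and 0.24, 0.38 and 0.12 in Nmd-. All 6 were above 0 and none of the fits passed the test. ATP1, the alpha subunit, and ATP15, the epsilon subunit, had changes of 0.22 to 0.41.

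The Fo part and the peripheral stalk, which hold the proton path and keep F1 from turning, had median changes of 0.34 in Nmd+ and 0.35 in Nmd-. Of its 7 probe sets 1 was called in each strain. ATP14 (YLR295C) rose by 0.33, 0.80 and 0.71 in Nmd+ on probe set 10054_at (mean 0.62, adjusted p = 0.017), with 0.39 in Nmd-. Its other probe set, 10010_at, gave 0.28, 0.76 and 0.32 in Nmd+ (mean 0.45, adjusted p = 0.056), with the same sign in every course.

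ATP7 (YKL016C), a stalk subunit, changed by 0.57, 1.14 and 0.68 in Nmd- (mean 0.80, SE 0.16, adjusted p = 0.010) and by 0.44, 0.66 and 0.51 in Nmd+ (mean 0.54, adjusted p = 0.033, under the fold minimum). ATP20, a subunit linked to dimers of the enzyme, had the lowest change in Nmd+, with -0.14, 0.18 and -0.14. ATP5, which joins the stalk to F1, had the lowest in Nmd-, with 0.12, 0.18 and 0.15, and gave 0.14, -0.19 and 0.09 in Nmd+. ATP4 and ATP17 had changes of 0.30 to 0.35 in the 2 strains.

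**Figure D5:**
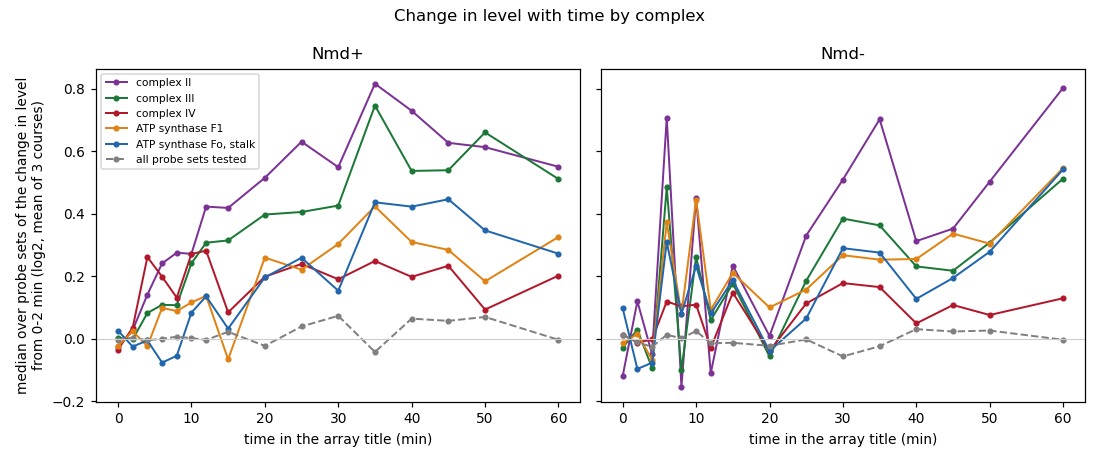
Median over the probe sets of each complex of the change in level from the 0-2 min mean (vertical axis, log2, mean of 3 courses) against the time in the title (horizontal axis, min), with all 9275 probe sets as a dashed grey line. In Nmd+ complexes II and III end at 0.55 and 0.51 and complex IV at 0.20, and the Nmd- lines show the same early alternation as the array positions.

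The time at which the changes appeared was followed in 2 further windows. From 0-2 to 6-10 min the median change of the members was 0.15 in Nmd+ and 0.20 in Nmd-, against 0.00 and 0.02 over all probe sets. No member was called in Nmd+ by limma (1.35% of all probe sets), and 3 members had an unadjusted p under 0.05, as 14.3% of all probe sets did. CYC7 came nearest in Nmd+, with changes of 2.13, 0.13 and 1.92 (mean 1.39, adjusted p = 0.072), and 1 member was called when Nmd+ replicate 2 was left out. In Nmd- CYC7 alone was called (4.59% of all probe sets were called higher), with changes of 1.44, 1.93 and 1.74 (mean 1.71, adjusted p = 0.011).

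That Nmd- call rested on the arrays whose order was in doubt, since without the 12 of them the CYC7 change was 0.42 (adjusted p = 0.529) and no member was called. It was also lost without Nmd- replicate 2 or 3, when no member was called, and without Nmd+ replicate 2 or 3 the count was 2. The shares of all probe sets in those fits are not given. With no fold minimum 2 members were called, where 5.4% of all probe sets were higher.

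From 6-10 to 20-30 min 3 members rose in Nmd+, where 3.27% of all probe sets were called higher. CYC7 changed by 1.69, 1.37 and 1.54 (mean 1.53, adjusted p = 0.017), QCR6 by 0.50, 0.73 and 0.59 (mean 0.60, adjusted p = 0.024) and QCR10 by 0.74, 0.63 and 0.46 (mean 0.61, adjusted p = 0.041). The count was 0, 1 and 0 without Nmd+ replicate 1, 2 and 3. In Nmd- no member was called and none had an unadjusted p under 0.05, where no probe set of the 9275 was called (0%) and 6.43% had an unadjusted p under 0.05. Without the 12 arrays CYC7 and SDH2 were called in Nmd-, at 2.21 and 0.68, and without both sets SDH1 was called as well, at 0.67. The shares of all probe sets without those arrays, or with a course left out, are not given, so these calls are not read as particular to the members. Of the 37 members 5 were above 0 in 3 of 3 Nmd+ courses and below 0 in 3 of 3 Nmd- courses in this window, where 12.3% of all probe sets had the strains opposed in either way.

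Over single times the member median in Nmd+ was 0.09 at 4 min, 0.19 at 10 min, 0.28 at 20 min and 0.47 at 35 min, and 0.46 at 60 min, while that of all probe sets stayed between -0.04 and 0.07. Without CYC7 it was 0.39 at 60 min. In Nmd- the member median reached 0.49 at 60 min, and the courses gave 0.77, 0.57 and 0.08 at that time. The Nmd- replicate 3 course thus ended near its start.

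Genes that work with the chain were taken from 7 further lists, described by counts and medians of the change from 0-2 to 45-60 min. The shares of all probe sets, 11.1% higher and 14.3% lower in Nmd+ and 9.97% and 11.1% in Nmd-, apply to each count of that change on the RMA scale. The single-polypeptide dehydrogenases that feed ubiquinone or cytochrome c had a median of 1.27 in Nmd+ and 1.11 in Nmd-, with 3 of 6 called higher in each strain. They were NDE2, an external NADH dehydrogenase (2.19 in Nmd+, 1.32 in Nmd-), NDI1, the internal one (1.20 and 1.13), and CYB2, the lactate dehydrogenase that reduces cytochrome c (1.73 and 1.10). In the TCA cycle list 6 of 11 rose in Nmd+ and 2 in Nmd-, with medians of 0.71 and 0.35. CIT1, citrate synthase, rose by 1.15 and 0.76, and MDH1, malate dehydrogenase, by 1.14 and 0.73, while KGD2 rose by 0.84 in Nmd+ and had 0.41 in Nmd-.

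Of the inhibitors and dimer subunits of the ATP synthase 2 of 6 rose in each strain, with medians of 0.44 and 0.33. STF1, an inhibitor of ATP hydrolysis, rose by 1.35 in Nmd+ and 1.39 in Nmd-, and STF2, which is named as its stabilizing factor, by 1.03 and 1.34. Assembly and translation factors of the chain rose for 9 of 43 in each strain, with medians of 0.23 and 0.28. Those with the smallest adjusted p were COX23, FMC1 and COX20 in Nmd+, with 1.08, 1.17 and 0.81, and CYT2, CBP1 and COX14 in Nmd-, with 0.95, 0.99 and 0.90. The strain comparisons called 1 gene of this list each, CBP1 lower in Nmd- at 0 min (-1.12, adjusted p = 0.026) and COX19 higher in Nmd- over the mean of 16 times (1.48, adjusted p = 0.018). In those comparisons 4.98% and 2.72% of all probe sets were called, so 1 of 43 is not above either share.

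Of 55 probe sets for mitochondrial ribosomal proteins, 11 rose in Nmd+ and 10 in Nmd-, with medians of 0.35 and 0.29. Of 12 for the mitochondrially encoded subunits, 6 rose in Nmd+ and 1 in Nmd-, the latter near the share of all probe sets, with medians of 0.57 and 0.48, among them COB, the cytochrome b gene of complex III (0.82 in Nmd+ on probe set 3974_at), and OLI1, which encodes the Fo ring subunit (0.74). Yeast mitochondrial mRNAs carry no poly(A) tail and are not made by RNA polymerase II, whereas the cDNA was primed with oligo(dT), so these values may not follow abundance.

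The list of HAP activators, heme and hypoxic regulators moved in both directions, with medians of 0.20 in Nmd+ and 0.01 in Nmd-. In Nmd+ 4 of its 17 probe sets rose and 3 fell. Among those that rose were ROX1, a repressor of hypoxic genes (1.22), HAP4, the regulated subunit of the HAP activator (1.42), and HAP2, one of its DNA-binding subunits (0.83). In Nmd- 2 rose and 1 fell, with HAP1 at 1.80 on 3270_f_at and 1.72 on 3493_f_at and AAC3, a hypoxic ADP/ATP carrier, the one that fell (adjusted p = 0.016). The names of both HAP1 probe sets mark probes that may match related sequences, and the third HAP1 probe set, 10058_at, gave 0.20 in each strain without passing (adjusted p = 0.430 in Nmd+ and 0.451 in Nmd-). In Nmd- these counts, and in Nmd+ the 3 that fell, are close to the shares of all probe sets.

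On the scale of the reference probe sets the median of the single-polypeptide dehydrogenases stayed above 0, at 0.55 in Nmd+ and 0.61 in Nmd-, with 2 called higher and 2 lower in each strain. The medians of the other 6 lists were then below 0 in both strains, from -0.52 to -0.01 in Nmd+ and from -0.50 to -0.02 in Nmd-. Of the 43 assembly and translation factors 1 was called higher and 15 lower in Nmd+, and of the 55 mitochondrial ribosomal probe sets none was higher and 18 were lower in Nmd+, both smaller shares than the 57.2% of all probe sets called lower.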

How the data were processed

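RNA from 96 yeast culture samples, 48 per strain, was hybridized by the authors to Affymetrix YG-S98 arrays as labelled cRNA, made from oligo(dT)-primed cDNA and loaded in equal amounts. The deposited table holds log2 expression values that the authors computed by RMA, which subtracts background, equalizes array distributions and summarizes probes. The methods print the natural log, but the largest value, 14.16, exceeds 11.09, the natural log of the largest possible 16-bit intensity, so the scale was taken as log2. The version of the software and a genome build are not given in the sources used here. The deposited run records of the arrays (other fields, such as chip lot and scan time) were used only to form 3 scan periods and the chip lots. Depth does not apply to arrays, and 3 courses per strain limit the precision.

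Strain, time and replicate were taken from the array titles, since the source names give another strain for the Nmd+ arrays and another time for the arrays titled 2 min. Nothing in the labels says more of the replicates than that they were separate trials. Probe sets were named from the platform annotation, and 60 array controls were left out of the 9275 tested. A course is 1 culture, so each course gave 1 value per comparison: its 0 min level, its mean over 16 times, or a difference of window means (0-2, 6-10, 20-30 and 45-60 min). These were fitted with lmFit and eBayes in limma 3.58.1 (R 4.3.3), with both strains in 1 fit, p-values adjusted by Benjamini-Hochberg over the 9275, and a call at adjusted p under 0.05 and at least 1.5-fold. The study's SAM test, which reassigns labels, was not run. The scripts were tested on simulated data with known changes. Tables and plots were made with Python 3.11.15, pandas 2.3.3 and matplotlib 3.10.9.

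Same-numbered courses of the 2 strains deviated together over the mean of 16 times (correlations of 0.73, 0.58 and 0.83 over probe sets), although the scan periods follow the same split. The main fits did not pair the courses, so their p-values and intervals are those of unpaired courses. Pairing entered only in the alternative with the replicate number as a block. Replicate 1 was scanned mostly in period 1 and replicates 2 and 3 mostly in period 2. At 0 min the correlations were 0.10, -0.30 and 0.06.

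Single values are printed for the isoform pairs COX5A and COX5B, and CYC1 and CYC7, and for the largest change up and down in each complex. The remaining members are given by range, mean or count, apart from those named for a call, a separated range or an unadjusted p, and up to 3 genes with the smallest adjusted p are named per further list. The members and lists were chosen with earlier results of these data known. For each comparison 16 alternatives were chosen at the outset, and 2 were added after the data were seen.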

Additional observations from a re-analysis of the deposited data

Results flagged for a closer look

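From 6-10 to 20-30 min the change of 5 of the 37 member probe sets was above 0 in 3 of 3 Nmd+ courses and below 0 in 3 of 3 Nmd- courses, a difference between the strains that was not tested. None of the 5 was called in either strain, and single courses were as close to 0 as 0.019 for SDH3 and 0.037 for COX8. Over all probe sets 12.3% had the strains opposed in either way. The members opposed in either way were these 5, so their share is near that of all probe sets. The share of all probe sets opposed in this direction alone was not counted. SDH3 had mean changes of 0.41 in Nmd+ and -0.12 in Nmd- (Nmd- minus Nmd+, -0.53), ATP4 of 0.31 and -0.14 (-0.45), and ATP14 on probe set 10054_at of 0.23 and -0.15 (-0.38). COX13 had 0.19 and -0.06 (-0.26), and COX8 had 0.10 and -0.09 (-0.18). The 6-10 min window of Nmd- contains arrays titled 6 and 10 min, which lay ahead of the next title time. Without the 12 Nmd- arrays titled 2, 6, 10 and 15 min the Nmd- changes were 0.16 for SDH3, 0.02 for ATP4, 0.01 for ATP14, 0.13 for COX13 and -0.17 for COX8.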

How the results depend on the processing

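No member was called in the strain comparisons at 0 min, over the mean of 16 times or in the change under any alternative run (18 each, 19 at 0 min). For the other comparisons the counts of members called moved as follows, given without the shares of all probe sets under the same settings. From 0-2 to 45-60 min in Nmd+ 11 were called higher, and 1 with arrays centred on the reference probe sets, 4 within scan period 2 and 6 to 11 with 1 course left out. None was called lower, but 1 (CYC1) in the fits with the replicate block, a trend and robust prior, single arrays (course random) or a scan period block, 7 with centring, and 0 to 1 with 1 course left out. In Nmd- 7 were called higher, and 13 without the 6 arrays in doubt, 12 without both sets, 1 with centring, 3 within scan period 2 and 2 to 7 with 1 course left out, and none was lower but 2 with centring. From 0-2 to 6-10 min none was called in Nmd+, and 1 with centring, on single arrays and under the scan period block, and 0 to 1 with 1 course left out. In Nmd- 1 was called, and 2 with no fold minimum, without the 6 arrays, after a running median over the probe set number and on single arrays, 3 under the scan period block, 0 without the 12 Nmd- arrays, without both sets and within scan period 2, and 0 to 2 with 1 course left out. From 6-10 to 20-30 min 3 were called in Nmd+, and 1 after the running median, with centring and under the scan period block, 0 with the trend and robust prior and within scan period 2, and 0 to 3 with 1 course left out. In Nmd- none was called, but 2 without the 12 arrays and 3 without both sets. The replicate block changed no other call of a member.

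Centring turned 6 called Nmd+ rises to values below 0, none of them called: ATP14 on 10054_at at -0.11, COX12 at -0.13, QCR8 on 11172_at at -0.12, COX13 at -0.11, COR1 at -0.058 and QCR2 at -0.062. By its construction this moves all probe sets together. Over single members and all alternatives 5882 values kept their side of the threshold, 53 gained and 90 lost it, and 6 reversed. The cause of the other moves was not tested. Within scan period 2 only replicates 2 and 3 remain. Changes near 1.5-fold are at the limit of 3 courses per strain.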

Other observations

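The array also carries a control probe set for RIP1, which was outside the tests. Its level changed from 0-2 to 45-60 min by 0.63, 0.73 and 0.60 in Nmd+ replicates 1, 2 and 3 and by 0.33, 0.35 and 0.24 in Nmd-. The tested RIP1 probe set gave 0.62, 0.62 and 0.51 in Nmd+ and 0.32, 0.42 and 0.24 in Nmd-.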
